A study of Mus musculus with 3 samples.

Results

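The genes described here are 10 transcription factors that mark or pattern the epicardium and the developing heart: Wt1, Bnc1, Tcf21, Hand2, Tbx18, Tbx20, Gata4, Gata6, Nr2f2 and Ets1. They were chosen by name, as the rows of the deposited gene table that carry these symbols, and they are 10 of the 18245 genes listed. The choice was made with earlier results of these data known. Messenger RNA of 3 kinds of cultured mouse cell was sequenced in 3 libraries each. CDC are cardiosphere-derived cells, adherent cells that grow out of heart tissue by way of floating spheres. CDC-EpiC is an epithelial clone isolated by cloning cylinder after CDC were cultured with SB-431542 at 10 µM, where such clones appeared over 2 weeks. This compound blocks the receptor kinase through which TGF-beta signals. pEpiC are primary epicardial cells.

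All 3 kinds came from ventricle epicardium of C57BL/6 mice, aged 6 weeks for CDC and 6 to 8 weeks for pEpiC, and CDC and pEpiC were at passage 3. In the study's methods, CDC grew out of peeled pieces of epicardium and passed through spheres. pEpiC were instead released from the dissected heart with collagenase and trypsin, and the culture media differed too. In comparisons with pEpiC, the kind of cell cannot be told apart from isolation and culture. The labels describe trypsin digestion to separate mesenchymal cells from the epithelial clones. CDC-EpiC differs from CDC by inhibitor, selection of a clone and transfer to a new plate together, so the inhibitor alone cannot be told apart from the rest, and its 3 libraries hold no difference between clones. The study's methods mention biological replicates, but fewer per condition than there are columns here. The legend of its figure comparing CDC and pEpiC gives an n equal to the number of columns, without saying what was replicated. Which columns are biological replicates is not given, so the p-values measure only the spread between these libraries, which may be technical.

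The epicardium is the mesothelial sheet over the heart. In the embryo its cells express Wt1, Tbx18 and Tcf21, and some of them leave the sheet by epithelial to mesenchymal transition and become fibroblasts and mural cells. GATA, T-box and HAND factors act both there and in heart muscle, in overlapping combinations, so that none of the members defines a cell type by itself.

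The upstream sequence is shown for members with large or opposite changes in the clone, so that the members can be compared by sequence as well as by level. The RefSeq promoter table (GRCm38.p6) matched 6 of the 10 members (Bnc1, Hand2, Nr2f2, Tbx18, Tbx20 and Tcf21), and Wt1, Gata4, Gata6 and Ets1 have no entry there. The 250 bases before the RefSeq start of transcription are given 5′ to 3′ on the strand of the gene, with capitals at matches to motifs of the families of the members on either strand. The first 3 belong to members that were higher in CDC-EpiC than in CDC, and the last pair to the members that were lower.
Bnc1 (chr7:81992300-81992549, minus strand): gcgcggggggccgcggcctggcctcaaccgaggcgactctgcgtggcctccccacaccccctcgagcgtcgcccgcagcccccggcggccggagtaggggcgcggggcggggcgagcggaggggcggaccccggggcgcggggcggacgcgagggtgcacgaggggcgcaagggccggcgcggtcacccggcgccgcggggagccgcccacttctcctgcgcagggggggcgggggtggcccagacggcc
Tbx20 (chr9:24774304-24774553, minus strand): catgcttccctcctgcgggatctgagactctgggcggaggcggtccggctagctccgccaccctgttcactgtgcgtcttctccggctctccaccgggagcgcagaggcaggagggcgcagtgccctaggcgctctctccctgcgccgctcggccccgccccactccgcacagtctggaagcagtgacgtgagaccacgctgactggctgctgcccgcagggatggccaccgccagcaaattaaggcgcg
Tcf21 (chr10:22820144-22820393, minus strand): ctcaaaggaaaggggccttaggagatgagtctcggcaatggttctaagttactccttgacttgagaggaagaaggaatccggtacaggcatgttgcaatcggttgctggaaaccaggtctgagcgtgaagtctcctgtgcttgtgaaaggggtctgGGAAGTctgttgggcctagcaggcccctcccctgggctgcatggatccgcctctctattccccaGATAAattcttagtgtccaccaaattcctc
Tbx18 (chr9:87731261-87731510, minus strand): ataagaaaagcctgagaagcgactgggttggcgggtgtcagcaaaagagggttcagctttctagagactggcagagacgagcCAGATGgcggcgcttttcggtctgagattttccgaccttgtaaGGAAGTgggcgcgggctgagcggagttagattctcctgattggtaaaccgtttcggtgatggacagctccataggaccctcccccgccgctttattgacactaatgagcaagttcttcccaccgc
Hand2 (chr8:57320733-57320982, plus strand): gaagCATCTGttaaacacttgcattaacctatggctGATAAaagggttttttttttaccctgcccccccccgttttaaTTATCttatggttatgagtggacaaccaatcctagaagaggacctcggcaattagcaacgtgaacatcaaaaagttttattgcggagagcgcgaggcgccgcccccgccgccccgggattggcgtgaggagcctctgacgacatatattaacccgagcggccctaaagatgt

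These windows differed most in base composition. The Bnc1 window was 83.6% G or C and held 39 CpG, and 99.7% of the 32851 promoter windows of the table had a lower G and C content. Tbx20 followed with 68.8% and 22 CpG. Tbx18, Tcf21, Nr2f2 and Hand2 lay between 49.2% and 54%, close to the median of 52.4% over all windows, and Tcf21 held 5 CpG and Nr2f2 held 1. The GATA letters GATAA occurred in the windows of Hand2 and Tcf21 and in 22.6% of all windows. The E-box CATCTG occurred in Hand2 and Tbx18 (14.4% of all windows), and the ETS core GGAAGT occurred in Tbx18 and Tcf21 (19.7% of all windows). The other letters searched, on both strands and with no overlap among the matches, were the E-box CAGCTG (13% of all windows), the T-box core AGGTGT (11.8%), the nuclear receptor core AGGTCA (14%) and the WT1 and EGR core GCGTGGG (4.3%), and none of these was in the 6 windows. The GENCODE start of Tcf21 lies 31 bases upstream of the RefSeq start, so its GATAA, at 30 to 26 bases before the latter, is inside the GENCODE gene. The RefSeq starts of Bnc1 and Nr2f2 lie 7 and 11 bases upstream of those of GENCODE. A match is a description of the letters and not a binding site.

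Every member was expressed in all 9 libraries, with 202 counts as the lowest value (Wt1 in CDC library 1). The libraries held 22008833 to 22756045 expected counts, which are reads assigned to genes by estimation. Levels within a member are given as CPM (counts per 1000000 after TMM scaling of the library totals). Levels are compared between genes only as TPM, which is also divided by transcript length. Genes of the other lists are given mostly as TPM, a scale that raised pEpiC against both other kinds over all genes. Differences are log2 changes from edgeR with their standard error (SE), and the adjusted p is by Benjamini-Hochberg over all genes tested, with a threshold of 0.05. All 10 members passed the filter on low counts in each of the 3 comparisons. The comparisons share libraries, so they are not independent of each other.

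The members changed in all comparisons, as did most genes. All 10 passed the threshold between pEpiC and CDC, where 78.3% of all tested genes did, with 6 higher in pEpiC (39.8% of all genes) and 4 lower (38.5%). Between CDC-EpiC and CDC 9 members passed (68.8% of all genes), with 7 higher in the clone (34.2%) and 2 lower (34.6%). Between CDC-EpiC and pEpiC all 10 passed (81.9%), with 5 higher in the clone (40.3%) and 5 lower (41.5%). With so many genes past the threshold, the counts say little about the members, and the sizes of the changes are the more informative values.

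By size, 4 members differed at least 2-fold between pEpiC and CDC (30.1% of all genes), 6 between CDC-EpiC and CDC (21.7%) and 5 between CDC-EpiC and pEpiC (35.9%). The libraries of the 2 kinds did not overlap in CPM for 10, 9 and 8 members in the same order of comparisons, against 81.5%, 72.1% and 84% of all genes. The median size of the log2 change, without sign, was 0.98, 1.2 and 0.92 for the members against 0.61, 0.44 and 0.71 for all genes. Because the members were chosen with earlier results of these data known, their larger sizes are a description and not a test of the set.

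**Figure D1:**
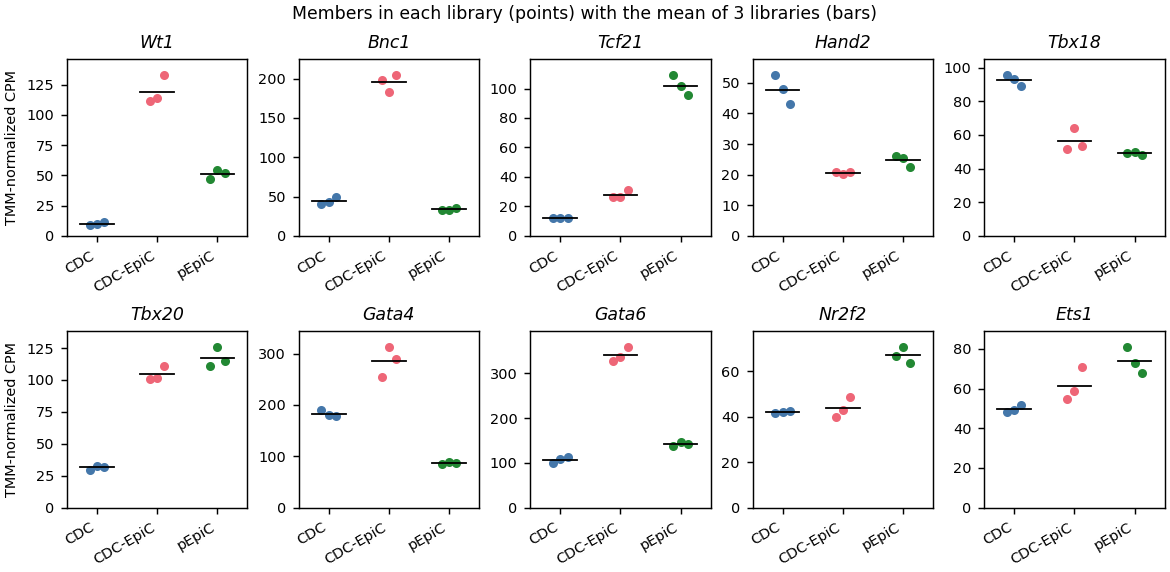
TMM-normalized CPM (vertical axes, from 0, a scale for each gene) of each member in the 3 libraries of CDC, CDC-EpiC and pEpiC; points are libraries and bars are means. Wt1, Bnc1, Gata4 and Gata6 were highest in CDC-EpiC, Tcf21 and Nr2f2 in pEpiC, and Tbx18 and Hand2 in CDC, while the libraries of CDC-EpiC and pEpiC overlapped for Tbx20 and Ets1.

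Wt1 encodes a zinc finger factor that the fetal epicardium needs, and it lies on chromosome 2 from 105126529 to 105173616 (plus strand, GRCm38, GENCODE annotation). Its level was 9.32, 9.48 and 11.3 CPM in the CDC libraries, 112, 114 and 133 CPM in CDC-EpiC, and 46.9, 54.5 and 51.9 CPM in pEpiC. The 3 kinds stood apart without overlap, with the clone highest and CDC lowest. The log2 change was 3.56 (SE 0.10) from CDC to CDC-EpiC, with an edgeR adjusted p of 2.57e-13, which is the largest rise of a member in any comparison and exceeds the change of 98.9% of the tested genes. It was 2.30 (SE 0.09) from CDC to pEpiC (adjusted p by edgeR 1.13e-08). The clone also stood above pEpiC, by 1.22 (SE 0.08) on the log2 scale, or 2.33-fold (adjusted p by edgeR 2.39e-07). In CDC the counts were low but well measured, at 202, 209 and 250.

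Bnc1 encodes basonuclin 1, a zinc finger protein of stratified epithelia, germ cells and mesothelium, and its gene is on chromosome 7 from 81966672 to 81992292 (minus strand). The CDC libraries held 40.5, 42.5 and 49.4 CPM, the CDC-EpiC libraries 198, 183 and 204 CPM, and the pEpiC libraries 33.0, 33.4 and 35.7 CPM. Only the clone was high, and both other kinds lay at or under 49.4 CPM. The rise from CDC to the clone was 2.14 (SE 0.09) on the log2 scale (adjusted p 1.42e-11 by edgeR). The clone exceeded pEpiC by 2.52 (SE 0.06), or 5.73-fold, with an edgeR adjusted p of 3.15e-10. Between pEpiC and CDC the difference in CPM was small (-0.42, SE 0.08, edgeR adjusted p 0.000652). It held in direction and significance in 15 of 17 alternatives. Its sign depended on the scale, since log2(TPM + 1) gave 0.08 with a limma adjusted p of 0.493.

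Tcf21 encodes a basic helix-loop-helix factor of the epicardium that is retained in cardiac fibroblasts, and its gene is a short one on chromosome 10 from 22817281 to 22820174 (minus strand). It was at 12, 12.3 and 12.4 CPM in CDC, at 26.5, 26.2 and 31.0 CPM in CDC-EpiC and at 109, 101 and 95.5 CPM in pEpiC. No libraries of different kinds overlapped, and the order was pEpiC, then the clone, then CDC. The change from CDC to pEpiC was 3.01 (SE 0.07), or 8.06-fold (edgeR adjusted p 4.81e-10), and it exceeded that of 94.8% of tested genes. From CDC to the clone it was 1.18 (SE 0.09, edgeR adjusted p 2.15e-08). The clone stayed below pEpiC by -1.87 (SE 0.08) on the log2 scale, with an adjusted p of 9.30e-09 by edgeR.

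Fibroblast markers were highest in pEpiC, as Tcf21 was. The 10 fibroblast genes of a fixed list, among them Col1a1, Col1a2, Dcn and Col3a1, summed to 15561 to 16884 TPM in the pEpiC libraries, against 3384 to 4737 TPM in CDC and 3472 to 4064 TPM in CDC-EpiC. Of these 10 genes, 9 were higher and 1 lower in pEpiC than in CDC, and 9 were lower and none higher in the clone than in pEpiC. Between the clone and CDC, where Tcf21 rose, 2 were higher and 6 lower, and their sums overlapped. Their part in the Tcf21 values was not tested. In bulk samples such as these, fewer cells of a type and less RNA per cell cannot be told apart.

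Hand2, the other basic helix-loop-helix member, takes part in forming the right ventricle and the epicardium, and lies on chromosome 8 from 57320983 to 57324633 (plus strand). Its order of kinds was the reverse of that of Wt1. The values were 52.5, 47.8 and 43.1 CPM in CDC, 20.8, 20.2 and 20.8 CPM in CDC-EpiC and 26.2, 25.4 and 22.5 CPM in pEpiC. CDC was highest without overlap, and CDC-EpiC and pEpiC lay close together below it. The log2 change from CDC was -1.22 (SE 0.09) in the clone, with an edgeR adjusted p of 6.49e-09, and -1.0 (SE 0.09) in pEpiC, with one of 3.03e-06. The clone was slightly under pEpiC (-0.26, SE 0.07, edgeR adjusted p 0.00789).

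Tbx18 encodes a T-box factor of the embryonic epicardium and of the sinus node region, and its gene is on chromosome 9 from 87702800 to 87731260 (minus strand). It was at 95.6, 93.3 and 89.2 CPM in CDC, at 51.8, 63.9 and 53.7 CPM in the clone and at 49.4, 50.2 and 47.9 CPM in pEpiC. CDC was highest and was the one kind that stood well apart. The log2 change from CDC was -0.96 (SE 0.06) in pEpiC (edgeR adjusted p 1.70e-07) and -0.72 (SE 0.09) in the clone (edgeR adjusted p 2.38e-06). Wt1 and Tcf21 rose in the same comparisons in which Tbx18 fell.

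The difference in Tbx18 between the clone and pEpiC was small, at 0.20 on the log2 scale with a 95% interval of 0.03 to 0.36 (edgeR adjusted p 0.0341). It held in direction and significance in 7 of 17 alternatives. It lost significance without CDC-EpiC library 2 (adjusted p 0.0979) and without pEpiC library 1 (0.0518), 2 (0.0656) or 3 (0.0992), all by edgeR. By TPM its sign was reversed, at -0.18 on log2(TPM + 1) with a limma adjusted p of 0.0506 and at -0.19 on log2(TPM + 0.1) with one of 0.0493. With the length trend removed it was 0.54 (edgeR adjusted p 0.000179), so the order of these kinds depended on the treatment of length.

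Tbx20, a T-box factor of heart muscle, valves and epicardium, lies on the same chromosome from 24718138 to 24774303 (minus strand) and moved against Tbx18. Its level was 29.7, 32.7 and 31.8 CPM in CDC, 101, 102 and 111 CPM in CDC-EpiC and 111, 126 and 115 CPM in pEpiC. CDC was lowest without overlap, while the libraries of the clone and of pEpiC overlapped. The rise from CDC was 1.85 (SE 0.07) in pEpiC (edgeR adjusted p 8.86e-09) and 1.73 (SE 0.08) in the clone (edgeR adjusted p 3.80e-11). The clone and pEpiC differed by -0.16 (95% interval -0.30 to -0.03, edgeR adjusted p 0.0301). That small difference was lost without CDC-EpiC library 1 (adjusted p 0.0898), CDC-EpiC library 2 (0.0978) or pEpiC library 2 (0.126) and turned to 0.34 when a trend with transcript length was removed (adjusted p 0.000257, both by edgeR). Tbx20 was also the member whose estimated effective length varied most between libraries, from 5390 to 6423 bases.

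Gata4 and Gata6 encode zinc finger factors that bind the same GATA letters and act together in heart development. Gata4 (chromosome 14, 63198922 to 63271692, minus strand) was at 190, 180 and 178 CPM in CDC, at 255, 313 and 289 CPM in CDC-EpiC and at 84.0, 88.1 and 87.6 CPM in pEpiC. The clone was highest and pEpiC lowest, with no overlap. Its log2 change was 0.64 (SE 0.08) from CDC to the clone (edgeR adjusted p 7.68e-06) and -1.12 (SE 0.06) from CDC to pEpiC (edgeR adjusted p 6.51e-08). The clone was thus 3.29-fold above pEpiC (1.72, SE 0.07, edgeR adjusted p 1.14e-08).

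Gata6 was also highest in the clone, but without a fall in pEpiC. Its libraries were at 100, 108 and 113 CPM in CDC, at 328, 337 and 360 CPM in CDC-EpiC and at 137, 147 and 141 CPM in pEpiC. The kinds did not overlap. The log2 change from CDC was 1.67 (SE 0.08) in the clone (edgeR adjusted p 6.78e-11) and 0.36 (SE 0.06) in pEpiC (edgeR adjusted p 0.000393), and the clone exceeded pEpiC by 1.27 (SE 0.05, edgeR adjusted p 1.12e-08).

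Nr2f2 encodes COUP-TFII, an orphan nuclear receptor of atrial, venous and mesenchymal cells, on chromosome 7 from 70351944 to 70366735 (minus strand). The CDC libraries held 41.5, 42.1 and 42.3 CPM, the clone 40.0, 42.9 and 48.7 CPM, and pEpiC 66.6, 70.8 and 63.8 CPM. pEpiC was the higher kind, and the libraries of CDC and the clone overlapped. It was the single member without a detected change from CDC to the clone, with a log2 change of 0.06 and a 95% interval of -0.12 to 0.23 (edgeR adjusted p 0.545). It was higher in pEpiC than in CDC by 0.63 (SE 0.06, edgeR adjusted p 4.36e-06) and lower in the clone than in pEpiC by -0.62 (SE 0.07, edgeR adjusted p 2.33e-05).

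Ets1 encodes an ETS family factor of endothelial, lymphoid and migrating mesenchymal cells, on chromosome 9 from 32636221 to 32757820 (plus strand). Its level was 48.0, 48.9 and 51.5 CPM in CDC, 54.8, 58.9 and 70.8 CPM in the clone and 81.1, 72.7 and 68.0 CPM in pEpiC. CDC was lowest, and the clone and pEpiC overlapped. The log2 change from CDC to pEpiC was 0.54 (SE 0.07, edgeR adjusted p 6.81e-05), but it was 0.09 (adjusted p 0.283) in edgeR once the trend with transcript length was removed. From CDC to the clone it was 0.31 (SE 0.09, edgeR adjusted p 0.00747), and it was 0.18 (adjusted p 0.0839) without CDC-EpiC library 3. Between the clone and pEpiC it was -0.27 (95% interval -0.48 to -0.05, edgeR adjusted p 0.0246). That difference missed the threshold without CDC-EpiC library 1 (adjusted p 0.106), CDC-EpiC library 2 (0.0803) or pEpiC library 1 (0.0693).

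The pEpiC library with the highest Ets1 was also the one richest in macrophage RNA. The 10 macrophage markers of a fixed list summed to 1682 TPM in pEpiC library 1 and to 687 and 608 TPM in libraries 2 and 3, against 76.5 to 77.4 TPM in CDC and 25.2 to 28.3 TPM in the clone. In that library Ets1 was 1.15 times and Tcf21 1.11 times the mean of the other two, whereas Gata6 was 0.951 times and Wt1 0.881 times. Without it, the changes from CDC to pEpiC kept their direction and significance for all 10 members. Endothelial cells also express Ets1, and their 10 markers summed to 45.7 to 59.5 TPM in pEpiC, 22.9 to 30.6 TPM in CDC and 14.5 to 16.3 TPM in the clone. Flt1 and Egfl7 were the most abundant. Of 5 tested between pEpiC and CDC, 4 were higher in pEpiC and 1 lower. Of 4 tested between the clone and CDC, 2 were higher in the clone and 1 lower. Between the clone and pEpiC, 1 of 5 was higher in the clone and 4 were lower. With at least 10 counts asked of every library, 2 were left between pEpiC and CDC, with 1 higher and 1 lower. Under that filter 3 were left between the clone and pEpiC, with 1 higher and 2 lower in the clone. Cdh5, Cldn5, Emcn and Tie1, named after their values were seen, were listed at 0 in the clone. The part of either cell type in the Ets1 values was not tested.

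**Figure D2:**
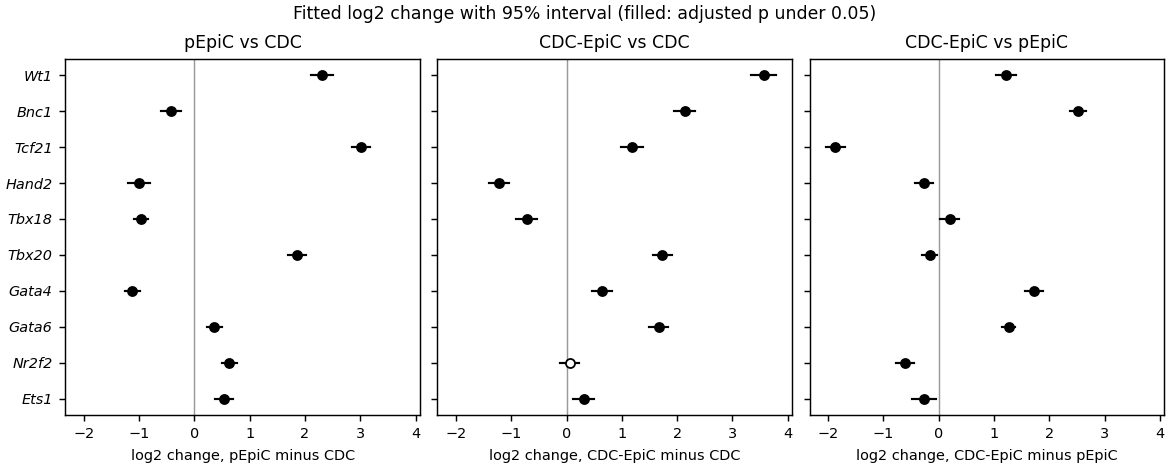
Fitted log2 change of each member (points) with its 95% interval (lines) in the 3 comparisons, with filled points for an edgeR adjusted p under 0.05. Nr2f2 between CDC-EpiC and CDC, at 0.06, is the one open point, and Gata4 lies on opposite sides of 0 in the first and second panels, at -1.12 and 0.64.

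By TPM, which allows genes to be ranked within a kind, the order of the members differed in each kind. In CDC the order was Gata4 (93.9 TPM), Gata6 (59.2), Hand2 (37.6) and Tbx18 (34.6), followed by Tcf21, Nr2f2, Ets1 and Bnc1 at 16.5 to 17.7 TPM, whose libraries overlapped from each to the next, and then Tbx20 (9.35) and Wt1 (5.71). In the clone Gata6 (198 TPM) and Gata4 (155) led, Bnc1 (76.9) and Wt1 (71.3) came next with overlapping libraries, then Tcf21 (42.4) and Tbx20 (31.3), and Ets1, Tbx18, Nr2f2 and Hand2 closed the order at 17.1 to 22.4 TPM, again with overlap between neighbours. In pEpiC the order began with Tcf21 (202 TPM), Gata6 (107) and Gata4 (61.2), followed by Tbx20 (44.7), Wt1 (39.9), Nr2f2 (38.2) and Ets1 (35.1), with overlap from each to the next, then Hand2 (26.7) and Tbx18 (25.2), which overlapped, and last Bnc1 (17.4). Wt1 was thus the lowest member in CDC and stood in the middle in the other kinds.

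The summed level of the 10 members was 309 ± 11.3 TPM in CDC, 656 ± 46.6 TPM in CDC-EpiC and 597 ± 21.9 TPM in pEpiC (mean ± SD, n = 3), with no overlap between CDC and the other kinds. The TPM scale raised pEpiC against CDC over all genes, with a median log2 change of 0.41 on log2(TPM + 1) against 0.02 for CPM. The distance of the pEpiC sum from those of CDC and the clone therefore depends on the scale. Different genes made up the sum. Tcf21 was 33.8% of it in pEpiC, 6.46% in the clone and 5.72% in CDC. Gata6 and Gata4 together led in the clone, with 30.2% and 23.6%, and Wt1 and Bnc1 added 10.9% and 11.7% there. In CDC Gata4 made up 30.4%, Hand2 12.2% and Tbx18 11.2%, while Hand2 and Tbx18 were each under 5% in both other kinds.

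**Figure D3:**
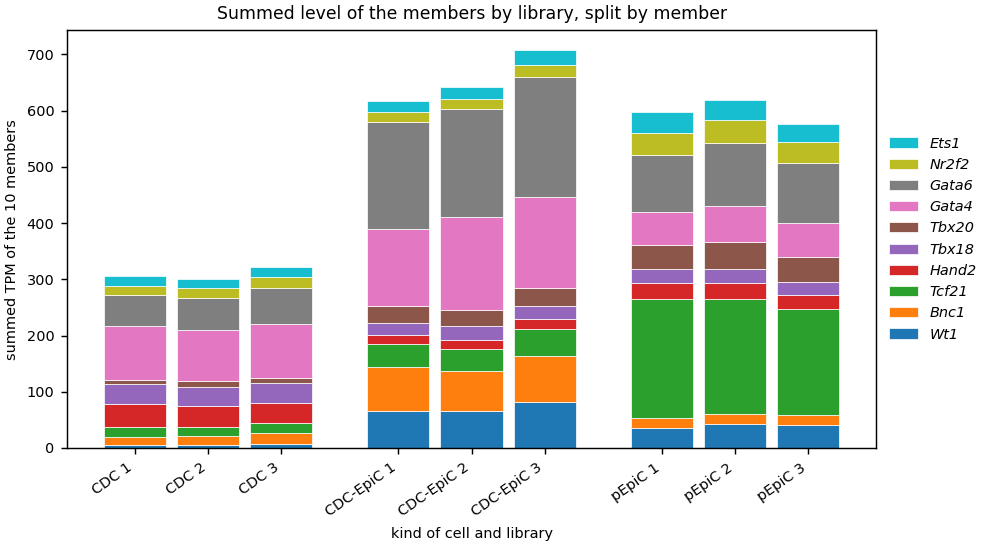
Summed TPM of the 10 members (vertical axis) in each of the 9 libraries, split by member in color. CDC libraries sum to 300 to 322, CDC-EpiC to 618 to 708 and pEpiC to 576 to 619, and the Tcf21 segment is the widest of pEpiC. The height of pEpiC against the other kinds depends on the scale.

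Ratios within a library do not depend on its scaling, though they keep any trend with transcript length, and they set related members against each other. The TPM ratio of Gata6 to Gata4 was 0.630 ± 0.057 in CDC, 1.29 ± 0.12 in the clone and 1.75 ± 0.029 in pEpiC (mean ± SD, n = 3). Tbx18 was 3.74 ± 0.49 times Tbx20 in CDC, and the ratio was 0.709 ± 0.092 in the clone and 0.565 ± 0.022 in pEpiC. In both pairs the gene with the higher level in CDC was the lower one in the other kinds. The TPM ratio of Tcf21 to Hand2 went from 0.472 ± 0.053 in CDC to 2.48 ± 0.22 in the clone and 7.56 ± 0.24 in pEpiC. The ratio of Wt1 to Tbx18 was 0.165 ± 0.024 in CDC, 3.25 ± 0.53 in the clone and 1.58 ± 0.12 in pEpiC. That of Tcf21 to Wt1 was 3.12 ± 0.30, 0.595 ± 0.009 and 5.10 ± 0.70 in the same order, so that the clone held less Tcf21 than Wt1 and the other kinds held more. None of these 5 ratios overlapped between kinds, but an exact permutation test of 3 against 3 libraries cannot give a p under 0.10.

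Transcript length bears on every comparison with pEpiC. Over 10687 genes the log2 change from CDC to pEpiC rose by 0.44 per doubling of effective length, and over 10691 genes the change between the clone and pEpiC had a slope of -0.44, whereas the slope between the clone and CDC was 0.0067. The members range from Tcf21 with 1222 bases, where 13.2% of genes are shorter, to Tbx20 with 6423 bases, where 91.8% are. Removing the trend moved the change of Tcf21 from CDC to pEpiC up to 3.51 and that of Tbx20 down to 1.27, and both kept an edgeR adjusted p under the threshold. Smaller changes moved more in proportion. With the trend removed, the change from CDC to pEpiC was 0.19 for Gata6, 0.30 for Nr2f2 and -0.82 for Bnc1, each still past the threshold. The TPM scale raised the median log2 change over all genes from CDC to pEpiC, to 0.41 against 0.02 for CPM, with 74.5% of the called genes higher against 50.8%. On log2(TPM + 1) the change from CDC to pEpiC was -0.44 for Tbx18, -0.48 for Hand2 and -0.61 for Gata4, and it was 0.85 for Gata6, 1.08 for Nr2f2 and 0.99 for Ets1, all past the threshold by limma. Between the clone and pEpiC that scale gave 0.82 for Wt1, 0.88 for Gata6, -0.61 for Hand2, -0.96 for Nr2f2, -0.50 for Tbx20 and -0.63 for Ets1, and the length offset gave -0.35 for Nr2f2, all past the threshold. On that scale 6 members were higher and 3 lower in pEpiC than in CDC, and 4 were higher and 5 lower in the clone than in pEpiC, where 32.9% of the called genes were higher against 49.3% by CPM. The 9 calls between the clone and CDC kept their direction and significance on both scales.

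**Figure D4:**
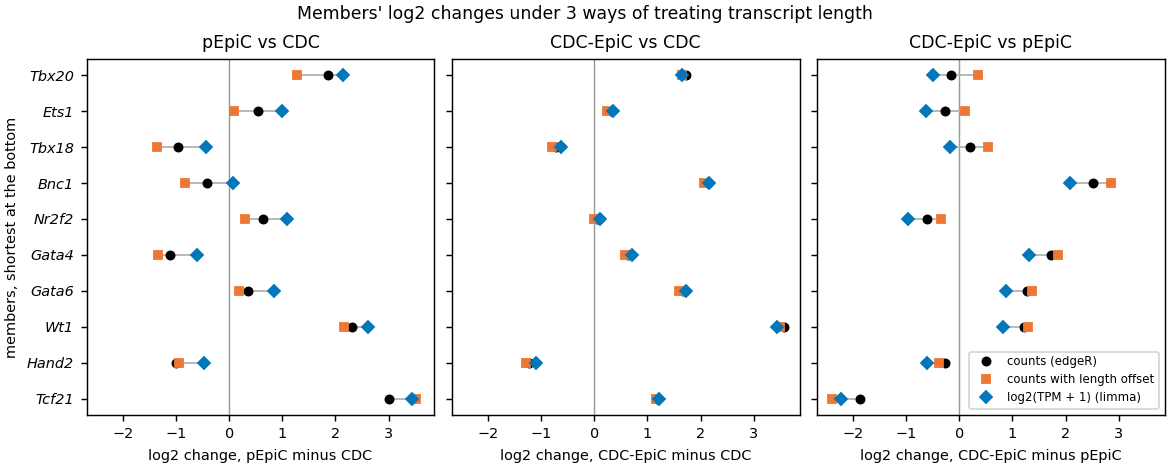
Log2 change of each member (horizontal axes) from counts in edgeR, from counts with a length trend removed, and from log2(TPM + 1) in limma, with members ordered by effective length. The 3 values nearly coincide between CDC-EpiC and CDC and spread in both comparisons with pEpiC, where Tbx18, Tbx20 and Ets1 cross 0 between the clone and pEpiC and Bnc1 crosses it between pEpiC and CDC.

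Genes with the most similar pattern over the 9 libraries were found by the root mean square difference of centred log2(CPM + 1), among 8606 genes. For Wt1 they were Mst1r, a receptor kinase of epithelia (difference 0.13), Plekha6 (0.180) and Wnt5a, a secreted WNT ligand (0.182). Mst1r was at 4.78, 52.8 and 25.0 CPM in CDC, the clone and pEpiC (means of 3 libraries), and Wnt5a at 8.78, 88.7 and 49.6 CPM. For Tcf21 they included Adam23 (0.141) and Slc4a4, a sodium bicarbonate cotransporter (0.148). Few genes lay near these members, with 6 genes within a difference of 0.25 of Wt1 and 8 within 0.25 of Tcf21. Near Tbx18, 599 genes lay within 0.25, led by Slc52a2 (0.058), Fam129b (0.060) and Pspc1 (0.063). The difference is not scaled to the size of the changes, and those of Tbx18 were smaller than those of Wt1 and Tcf21. The numbers of genes therefore do not rank how rare the shapes of the patterns are.

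Relatives of the members were measured as a fixed list of 38 genes of the same families. Between pEpiC and CDC, 19 of the 31 tested were higher and 8 lower (median log2 change 0.36). Between the clone and CDC, 17 of 29 were higher and 8 lower (median 0.31), and between the clone and pEpiC, 10 of 31 were higher and 13 lower (median -0.05). The medians with pEpiC depended on the scale, from 0.04 to 0.83 from CDC to pEpiC and from -0.44 to 0.16 between the clone and pEpiC over the alternatives. The most abundant were Egr1, an immediate early zinc finger gene (125, 167 and 117 TPM in CDC, the clone and pEpiC), Nr2f6 (48.8, 80.8 and 55.4 TPM), Ets2 (29.3, 46.6 and 47.2 TPM) and Elf2 (22, 32.3 and 59.4 TPM).

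Within families, some relatives differed in pattern from the member. The relatives in this paragraph were chosen after their values had been seen. Bnc2, the relative of Bnc1, was higher in pEpiC (11.1 TPM) than in the clone (2.89 TPM), a log2 change of -1.68 (SE 0.06, edgeR adjusted p 2.76e-09), where Bnc1 was higher in the clone. Tbx5, a T-box factor of heart muscle and limb, was at 8.94, 1.84 and 12.4 TPM in CDC, the clone and pEpiC, and its change from CDC to the clone was -2.37 (SE 0.12, edgeR adjusted p 9.82e-11). Tbx2 and Tbx3 were also lower in the clone than in CDC, by -1.55 (SE 0.18) and -1.32 (SE 0.17). Eomes was the T-box relative with the opposite change, with 32, 46 and 39 counts in CDC, 336, 384 and 382 in the clone and 5, 5 and 7 in pEpiC. Nr2f1 fell by 1.09 (SE 0.18) on the log2 scale from CDC to the clone (edgeR adjusted p 7.31e-05), where Nr2f2 had no detected change. No GATA relative had a mean above 6.80 TPM in any kind, far below Gata4 and Gata6. Spi1, a factor of myeloid cells, was at most 3 counts in CDC and the clone and at 347, 99 and 109 counts in pEpiC, with library 1 highest as for the macrophage markers.

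**Figure D5:**
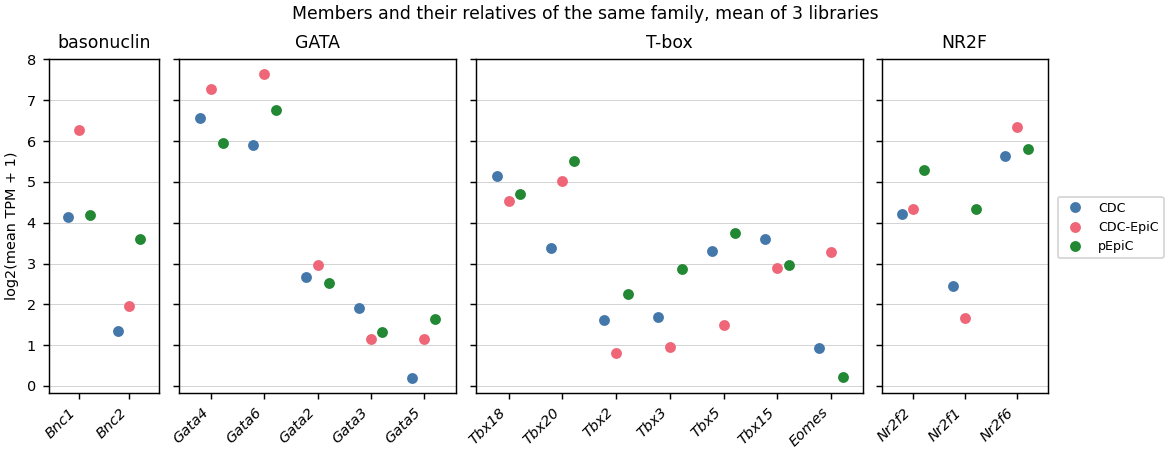
Mean level of members and selected relatives, as log2(mean TPM + 1) of 3 libraries, by family and kind of cell. Gata4 and Gata6 stand far above Gata2, Gata3 and Gata5, and Bnc1 and Bnc2 are highest in different kinds.

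Binding partners of the members were a fixed list of 10 genes. Of these, 6 were higher and 3 lower in pEpiC than in CDC, 7 higher and 2 lower in the clone than in CDC, and 4 higher and 4 lower in the clone than in pEpiC. Zfpm1, which encodes FOG1, a cofactor of GATA proteins, was at 30.8, 92.5 and 68.0 TPM in CDC, the clone and pEpiC and rose by 1.5 (SE 0.08) on the log2 scale from CDC to the clone (edgeR adjusted p 3.96e-10). Basp1, a corepressor of WT1, was at 226, 362 and 228 TPM and rose by 0.60 (SE 0.08, edgeR adjusted p 6.37e-06). Pawr, another WT1 partner, rose from 40.2 TPM in CDC to 84.0 TPM in the clone. Tcf3, an E protein that pairs with Tcf21 and Hand2, rose from 45.3 to 78.6 TPM. Its relative Tcf4, named after its values were seen, fell from 13.1 to 5.73 TPM in the clone and was at 63.8 TPM in pEpiC.

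Reported targets gave no common direction. Of 17 genes reported as Wt1 targets in various tissues, 15 were tested. Between the clone and CDC, where Wt1 rose 11.8-fold, 5 were higher (34.2% of all genes) and 6 lower (34.6%), with a median log2 change of -0.31. From CDC to pEpiC 6 were higher (39.8% of all genes) and 6 lower (38.5%). Between the clone and pEpiC 5 were higher (40.3%) and 8 lower (41.5%). With such shares over all genes, the counts say little about the targets, and an effect of Wt1 on them was not tested. The 4 most abundant all fell from CDC to the clone. There Spry1, an inhibitor of receptor kinase signalling, changed by -1.10 (SE 0.09), Sulf1, a heparan sulfatase, by -1.77 (SE 0.12), Snai1, a repressor of E-cadherin, by -2.04 (SE 0.08) and Pdgfa by -0.38 (SE 0.11), and all passed the threshold. From CDC to pEpiC Spry1 and Sulf1 instead rose, by 1.11 (SE 0.06) and 1.78 (SE 0.08), while Snai1 changed by -1.39 (SE 0.07) and Pdgfa by -0.68 (SE 0.07). Podxl, podocalyxin of podocytes and mesothelium, was chosen after its values were seen. It had 203, 237 and 259 counts in CDC, 4588, 5843 and 5845 in the clone and 19, 17 and 32 in pEpiC.

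Heart muscle genes were mostly low. Of 9 reported targets of GATA4 in heart muscle, 3 or 4 passed the filter in each comparison, where none was higher and 2 were lower in pEpiC than in CDC, 1 was higher and 2 were lower in the clone than in CDC, and 2 were higher and 1 lower in the clone than in pEpiC. The most abundant, Slc8a1, the sodium calcium exchanger, was at 8.45, 7.20 and 12.8 TPM in CDC, the clone and pEpiC. Among 10 cardiomyocyte markers, Tnnt2, cardiac troponin T, was at 14.6, 13.8 and 299 TPM, and the next, Tnni3, Myl2 and Actc1, had means of at most 3.26 TPM in each kind.

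Heart muscle transcription factors were a list of 17 genes, of which 16 were in the table and Irx4 was not analysed here. From CDC to pEpiC 7 of the 12 tested were higher and 3 lower, from CDC to the clone 4 of 10 were higher and 5 lower, and between the clone and pEpiC 4 of 12 were higher and 6 lower. With the length trend removed, the counts were 5 higher and 6 lower from CDC to pEpiC, with the median log2 change at -0.21 against 0.47, and 6 higher and 5 lower between the clone and pEpiC. The most abundant were Tead1 (78.2, 86.1 and 142 TPM in CDC, the clone and pEpiC), Mef2d (44.8, 54.7 and 69.3 TPM), Srf (41.0, 52.9 and 42.6 TPM) and Mkl1 (60.4, 37.1 and 34.5 TPM). The cardiac progenitor factors Nkx2-5, Isl1 and Hand1, named after their values were seen, had at most 5, 9 and 3 counts in any library. Gata4, Gata6, Tbx20 and Hand2 each had at least 445 counts in the same libraries.

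Mesenchymal transcription factors were a list of 21 genes. Of the 20 tested between pEpiC and CDC, 13 were higher and 4 lower (median log2 change 1.11). Of the 16 tested between the clone and CDC, 4 were higher and 9 lower (median -0.37), and of the 20 tested between the clone and pEpiC, 5 were higher and 13 lower (median -1.47). The signs of these medians held under all alternatives run for them, but the sizes with pEpiC depended on the filter. Among the 16 genes with at least 10 counts in every library of pEpiC and CDC, 9 were higher and 4 lower (median 0.49). Among the 15 with as many in every library of the clone and pEpiC, 4 were higher and 8 lower (median -0.47). Prrx1, a homeobox factor of mesenchyme, was at 192, 45.6 and 132 TPM in CDC, the clone and pEpiC and fell by 2.15 (SE 0.08) on the log2 scale from CDC to the clone (edgeR adjusted p 5.29e-12). Meis2 instead rose from 10.1 TPM in CDC to 53.7 TPM in the clone and 73.1 TPM in pEpiC. Osr1, a factor of epicardial and lateral mesoderm, was at 114, 136 and 125 TPM in CDC, the clone and pEpiC, on a scale that raised pEpiC over all genes.

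Surface and structural markers of epicardium and mesothelium allow the labels to be checked. All 10 markers of the list had counts in each kind, though 1 had at most 3 counts in every CDC library. The markers summed to 5271 to 5790 TPM in the clone, 882 to 1007 TPM in CDC and 684 to 732 TPM in pEpiC. The cells labelled as primary epicardial thus had the lowest sum. Of the 10, 5 were higher and 5 lower in pEpiC than in CDC. In the clone 5 of 7 tested were higher and 1 lower than in CDC, and 6 were higher and 4 lower than in pEpiC. The splits with pEpiC depended on the filter. Among the 7 markers with at least 10 counts in every library of the comparison, 2 were higher and 5 lower in pEpiC than in CDC. Under the same filter 6 of 7 were higher and 1 lower in the clone than in pEpiC. Upk3b, uroplakin 3B, was at 199, 2421 and 82.6 TPM in CDC, the clone and pEpiC, in which order Upk1b was at 158, 1219 and 73.0 TPM and Lrrn4 at 46.1, 1019 and 115 TPM. Upk3b and Upk1b thus shared with Bnc1 the order clone, CDC, pEpiC in CPM, while Lrrn4 shared that of Wt1. For Bnc1 the order of CDC and pEpiC depended on the scale. Aldh1a1 was at 438, 812 and 373 TPM.

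The 6 smooth muscle markers summed to 2013 to 2331 TPM in CDC, 606 to 826 TPM in the clone and 1262 to 1305 TPM in pEpiC, with 1 higher and 5 lower in the clone than in CDC, and 1 higher and 2 lower in pEpiC than in CDC. They are led by Acta2, Tagln and Smtn. Like Tbx18 and Hand2, the sum was highest in CDC, and its part in their values was not tested.

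The counting could mix genes on opposite strands. Tcf21, Tbx18, Gata6, Hand2, Nr2f2, Bnc1 and Ets1 each overlap an annotated gene on the opposite strand that is not in the table. The use of strand in counting is not given in the sources used here, so for these 7 members reads of the partner cannot be told apart from those of the member.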

How the data were processed

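The authors deposited 1 table with expected counts, FPKM and TPM of each gene in 9 libraries (3 per kind), and 9 columns of their means, which were not used. The expected counts are estimated reads per gene, not whole in 30.3% of values, the deposited FPKM are divided by length and library total, and the deposited TPM by length with a fixed sum. The submitters' processing notes name HISAT2 2.0.4, Bowtie2 2.2.5, RSEM 1.2.12, DESeq2 1.4.5 and mm10; the role of each, the annotation and the strand setting are not given in the sources used here. Libraries were poly(A)-selected and read as pairs on a BGISEQ-500.

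Expected counts were rounded and tested in edgeR 4.0.16 (R 4.3.3) over the 6 libraries of each pair of kinds (filterByExpr with a minimum count of 10 and total of 15, TMM, glmQLFit, glmQLFTest, Benjamini-Hochberg over all genes). The scripts were tested on simulated data. Alternatives were DESeq2 1.42.0, other scalings and filters, limma 3.58.1 on log2(TPM + 1), log2(TPM + 0.1) and log2(FPKM + 1), an offset for a length trend, a replicate block and leaving out each library. A pseudocount understates changes of low genes. Effective lengths came from counts and FPKM. The members and gene lists were chosen with earlier results of these data known. The named genes are the members, up to 4 genes per list with the highest mean TPM, and the 3 nearest patterns to Wt1, Tbx18 and Tcf21 among genes with at least 20 CPM in a kind; others are said to be chosen after their values were seen. Some genes that the rule names are not reported here.

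Python 3.11.15, pandas 2.3.3, NumPy 2.4.6 and matplotlib 3.10.9 were used for the rest. Intervals cover the spread between libraries.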

Additional observations from a re-analysis of the deposited data

How the results depend on the processing

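Of the 30 member changes (10 members in 3 comparisons), 23 kept their direction and their side of the threshold under all of the 17 alternatives run for each, and 7 did not under at least 1. The counts of members past the threshold were 9 to 10, 9 and 9 to 10 over the 11 alternatives that leave out no library, for pEpiC against CDC, the clone against CDC and the clone against pEpiC. Leaving out 1 library gave 10, 8 to 9 and 7 to 10 members, and 10073 to 10838, 8248 to 9046 and 10760 to 11076 genes. The signs that reversed were those of small changes. Bnc1 from CDC to pEpiC was 0.078 on log2(TPM + 1) and 0.083 on log2(TPM + 0.1), with limma adjusted p of 0.493 and 0.488. Nr2f2 from CDC to the clone was -0.0078 with the length offset and -0.036 without CDC-EpiC library 3. Between the clone and pEpiC, Tbx18 was -0.18 on log2(TPM + 1) and -0.19 on log2(TPM + 0.1), and with the length offset Tbx20 was 0.34 and Ets1 0.11. Tbx18 also missed the threshold there by DESeq2 (adjusted p 0.0720), with RLE normalization (0.0627), with at least 10 counts in every library (0.0909) and on log2(FPKM + 1) (0.0673), and Tbx20 without a filter (0.0510); the cause was not tested.

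The library numbers are shared between kinds. The deviations of same-numbered libraries correlated from -0.101 to 0.162, and those of differently numbered libraries from -0.158 to 0.133. These values show no clear pairing by number, and with 3 libraries per kind they cannot exclude it. With a replicate block the members past the threshold were 10, 9 and 10, and the genes 10604, 8831 and 11096. Depth limits little here, since each member had at least 202 counts in each library, whereas the 3 libraries of a kind, of unknown relation to animals or cultures, and the single clone limit what the changes stand for.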
